A study of Mus musculus with 11 samples.

Results

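The nuclear factor I (NFI) family consists of the genes Nfia, Nfib, Nfic and Nfix, which were taken by name. All 4 were among the 38924 genes counted by RNA sequencing (RNA-Seq) in granule cell precursors (GCps) of the postnatal day 7 (P7) mouse cerebellum, and all 4 were among the 16436 genes with enough counts to be tested. GCps lacking the chromatin remodeling factor CHD7 (cko, Math1-Cre Chd7fl/fl, 2 libraries) were compared with control GCps (2 libraries), which carried no Cre. The control genotype is Chd7fl/+ in the sample labels and 2 floxed alleles in the extraction notes. All mice were on a C57Bl/6J background.

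The Math1-Cre transgene is active in the granule cell lineage and spares the most posterior lobules, and lobules IX and X were removed before the cells were dissociated. Cerebella were pooled by genotype and cells were purified on a Percoll gradient. Whether the libraries of a genotype were made from different animals is not stated in the labels or methods, so the spread that the p-values rest on may in part be technical. For the cko libraries, the transcripts of the sex chromosomes given below differed as between a female and a male sample, so these 2 were not repeats of 1 pool.

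NFI proteins bind DNA as dimers, either of 1 member or of different members, through a shared amino-terminal DNA-binding domain, and they can activate or repress genes. They are best known in the nervous system for turning neural stem cells toward glia and for the late differentiation of neurons. In the postnatal cerebellum, Nfia, Nfib and Nfix are known from mouse mutants to act in axon and dendrite formation, migration and maturation of granule neurons, whereas Nfic is best known for tooth root formation.

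The 4 genes lie on 3 chromosomes of GRCm38, the assembly called mm10 (GENCODE gene models). Nfia (ENSMUSG00000028565) is on the plus strand at chr4:97772734-98118874 and spans 346 kb with 10891 bp of exonic sequence. Nfib (ENSMUSG00000008575) is on the minus strand at chr4:82290173-82705750 and spans 416 kb with 14957 bp of exonic sequence. Nfic (ENSMUSG00000055053) is on the minus strand at chr10:81396186-81455635 and is the shortest of the family, at 59.5 kb with 6630 bp of exonic sequence. Nfix (ENSMUSG00000001911) is on the minus strand at chr8:84699876-84800344 and spans 100.5 kb with 7351 bp of exonic sequence.

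Although the members are related, their transcripts shared 0 stretches of 50 identical bases with one another, out of between 6711 such stretches in Nfic and 15091 in Nfib. Exons of other genes on the opposite strand covered 0.037% of the exonic length of Nfia, 0% of Nfib, 1.09% of Nfic and 1.92% of Nfix. The sources used here do not say whether the counting used strand, and if it did not, reads from these overlaps cannot be told apart from those of the members.

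Promoter windows of 300 bases around starts annotated by RefSeq (GRCm38.p6) were found for Nfia, Nfic and Nfix, with Nfib named only, and for 13 of 19 genes linked to NFI in earlier work. These starts are not the outer ends of the GENCODE models: the Nfic and Nfix windows printed below lie 28.4 and 27.4 kb inside those models, and the Nfia window lies 191 kb upstream. NFI dimers recognise the palindrome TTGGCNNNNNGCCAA, in which N is any base. The core of that site, TTGGC or its reverse complement GCCAA, was searched on both strands and is in capitals in the sequences below. The core occurred in 46.7% of all 32851 promoter windows and the full palindrome in 12 of them, or 0.0365%, none of which belonged to the family or to the linked genes. The promoters shown are that of Nfix, the member with the largest difference between genotypes, that of Nfic, whose level was nearly equal in both, and those of Cntn2 and Insc, a linked gene that did not pass the test and one that fell.
Nfix, chr8:84772826-84773125, minus strand: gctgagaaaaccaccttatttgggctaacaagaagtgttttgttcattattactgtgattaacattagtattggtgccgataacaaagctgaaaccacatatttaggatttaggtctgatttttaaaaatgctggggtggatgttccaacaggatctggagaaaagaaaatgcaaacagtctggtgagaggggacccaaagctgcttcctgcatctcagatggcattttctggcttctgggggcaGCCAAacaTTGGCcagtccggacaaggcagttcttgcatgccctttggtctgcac
Nfic, chr10:81427124-81427423, minus strand: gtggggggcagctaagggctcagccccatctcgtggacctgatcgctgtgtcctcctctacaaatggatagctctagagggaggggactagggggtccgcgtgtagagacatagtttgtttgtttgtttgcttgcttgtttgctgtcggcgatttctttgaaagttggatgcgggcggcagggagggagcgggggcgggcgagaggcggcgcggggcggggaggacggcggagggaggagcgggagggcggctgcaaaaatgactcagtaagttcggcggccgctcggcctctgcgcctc
Cntn2, chr1:132542891-132543190, minus strand: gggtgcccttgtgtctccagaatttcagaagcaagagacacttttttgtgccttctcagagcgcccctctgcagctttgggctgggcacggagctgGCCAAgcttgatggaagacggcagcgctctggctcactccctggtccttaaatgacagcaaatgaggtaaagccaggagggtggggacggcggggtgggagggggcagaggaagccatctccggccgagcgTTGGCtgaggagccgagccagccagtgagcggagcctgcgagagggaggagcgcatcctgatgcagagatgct
Insc, chr7:114745516-114745815, plus strand: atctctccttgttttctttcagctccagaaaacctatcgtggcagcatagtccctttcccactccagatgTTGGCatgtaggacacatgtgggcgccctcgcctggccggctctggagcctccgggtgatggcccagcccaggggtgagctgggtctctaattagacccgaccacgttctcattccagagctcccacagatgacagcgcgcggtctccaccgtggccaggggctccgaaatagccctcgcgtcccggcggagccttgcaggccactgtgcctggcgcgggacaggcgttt
The Nfix window, 1 of 4 for this gene, held 2 cores facing away from each other, and the Nfic window held 0. The other Nfix windows held fewer cores, 1, 1 and 0, and the Nfia window held 0. The Cntn2 window held 2 cores and the Insc window 1. Among the linked genes 10 of 14 windows held at least 1 core. A match is a description of the sequence and not a bound site.

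Total counts were between 61836588 and 77346481 per library. In all, 260 of the 16436 tested genes were called at an adjusted p under 0.05 (edgeR's quasi-likelihood test, Benjamini-Hochberg adjustment), 133 of them higher and 127 lower in cko. In simulated counts of this design the share of false calls was above the threshold, so single calls with an adjusted p near 0.05 are uncertain. The median log2 fold change of all tested genes was -0.00. Chd7 itself had 392 and 355 CPM (counts scaled to library size, with TMM factors) in cko GCps, against 322 and 319 CPM in control GCps. Its log2 fold change of 0.22 (SE 0.10) did not pass (adjusted p = 0.418, edgeR quasi-likelihood test), and a count over the whole gene does not check a deletion of part of it. Xist, which is transcribed from the inactive X chromosome of females, was at 793 CPM in cko library 1 and at most 0.548 CPM in the other libraries. The Y-linked gene Ddx3y was at 0 CPM in cko library 1 and between 63.7 and 69.1 CPM in the others. Sex was thus not balanced between genotypes, and each NFI gene is also given without cko library 1. A fit without 1 library leaves 1 library in that genotype, so its p-values rest on the spread of the other genotype alone.

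None of the 4 NFI genes was called in cko GCps (0 of 4, against 1.58% of all tested genes, 0.809% called higher and 0.773% called lower). Nfix differed by 20.7% in cko relative to control, Nfib by -9.84%, Nfia by 1.88% and Nfic by -0.12% in their fitted levels. Both cko libraries lay outside the control range for Nfix and Nfib, that is for 2 of 4 members, which was also the case for 43.9% of all tested genes. One member, Nfix, had an unadjusted p under 0.05, as had 13.6% of all tested genes.

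Nfix promotes the differentiation of neural progenitors and of cerebellar granule neurons in mice. It had 1172 and 1188 CPM in cko GCps, against 1018 and 938 CPM in control GCps. Both cko libraries were above both control libraries, and they lay closer to each other than the controls did. The mean was 1180 ± 11.7 CPM in cko and 978 ± 56.8 CPM in control (SD, n = 2 libraries each). Its log2 fold change was 0.27 (SE 0.11, 95% interval 0.01 to 0.53), or 1.21-fold with an interval of 1.01-fold to 1.44-fold. After adjustment over all tested genes this difference failed edgeR's quasi-likelihood test (unadjusted p = 0.0433, adjusted p = 0.345). Without cko library 1 the log2 fold change was 0.29.

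Nfib is required in mice for normal forebrain and lung development and for granule neuron maturation. Nfib had 1326 and 1477 CPM in cko GCps, against 1503 and 1605 CPM in control GCps. Both cko libraries were below both controls, but the higher cko library and the lower control library differed little. The mean was 1401 ± 107 CPM in cko and 1554 ± 71.9 CPM in control (SD, n = 2 libraries each). The log2 fold change of -0.15 (SE 0.12, 95% interval -0.43 to 0.13) did not pass (adjusted p = 0.690, edgeR quasi-likelihood test). It was -0.06 without cko library 1 and -0.23 without cko library 2, so that 1 library moved the value by more than 1.5 times.

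Nfia is required in mice for glial development and for formation of the corpus callosum. It had 554 and 645 CPM in cko GCps, against 587 and 589 CPM in control GCps. The control libraries lay between the cko libraries. The mean was 599 ± 64.1 CPM in cko and 588 ± 1.497 CPM in control (SD, n = 2 libraries each). The log2 fold change was 0.03 (SE 0.11, 95% interval -0.24 to 0.30, edgeR adjusted p = 0.962), and its sign depended on which cko library was left out (0.14 without cko library 1, -0.09 without cko library 2).

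Nfic had the lowest level of the family, with 184 and 196 CPM in cko GCps, against 205 and 175 CPM in control GCps. The cko libraries lay between the controls. The mean was 190.1 ± 8.80 CPM in cko and 190.4 ± 21.2 CPM in control (SD, n = 2 libraries each). The log2 fold change was -0.00 (SE 0.11, 95% interval -0.27 to 0.26, edgeR adjusted p = 0.997), and 0.05 without cko library 1.

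**Figure D1:**
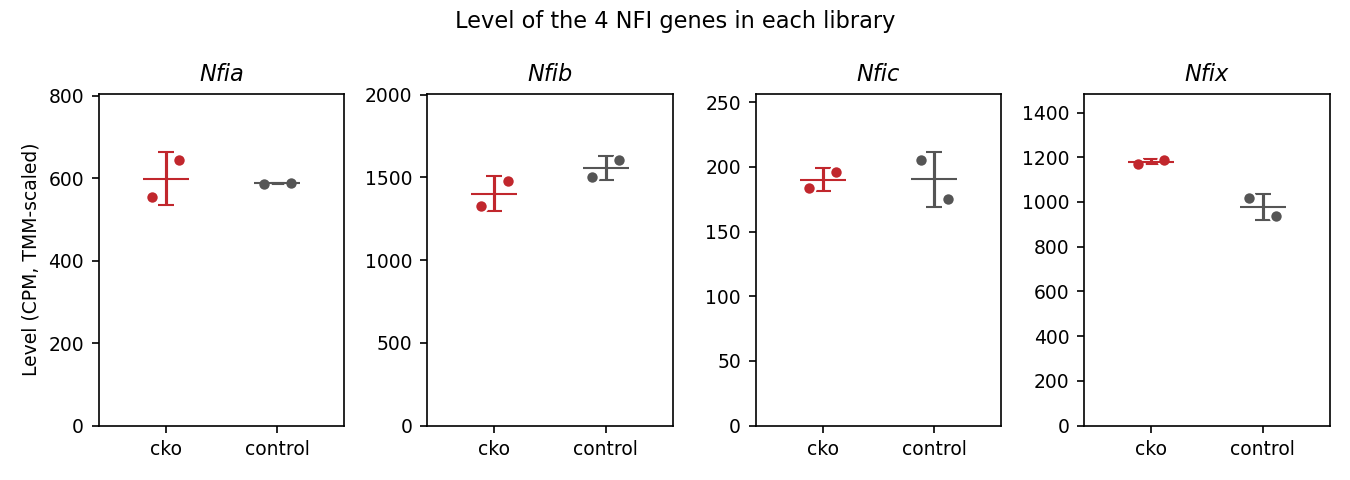
Level of each NFI gene in CPM (TMM-scaled, linear axes starting at 0), with cko left of control; points are libraries, the horizontal line is the mean and the bar is the SD (n = 2 libraries each). The cko libraries lie above both controls for Nfix (1172 and 1188 CPM against 1018 and 938 CPM) and overlap with them for Nfia and Nfic.

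The 95% intervals leave room for moderate differences in every member. They reach from 0.741-fold to 1.10-fold for Nfib, from 0.845-fold to 1.23-fold for Nfia and from 0.832-fold to 1.20-fold for Nfic. With 2 libraries against 2, an exact two-sided permutation test of a single gene cannot go below p = 0.333, so no such p is given.

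**Figure D2:**
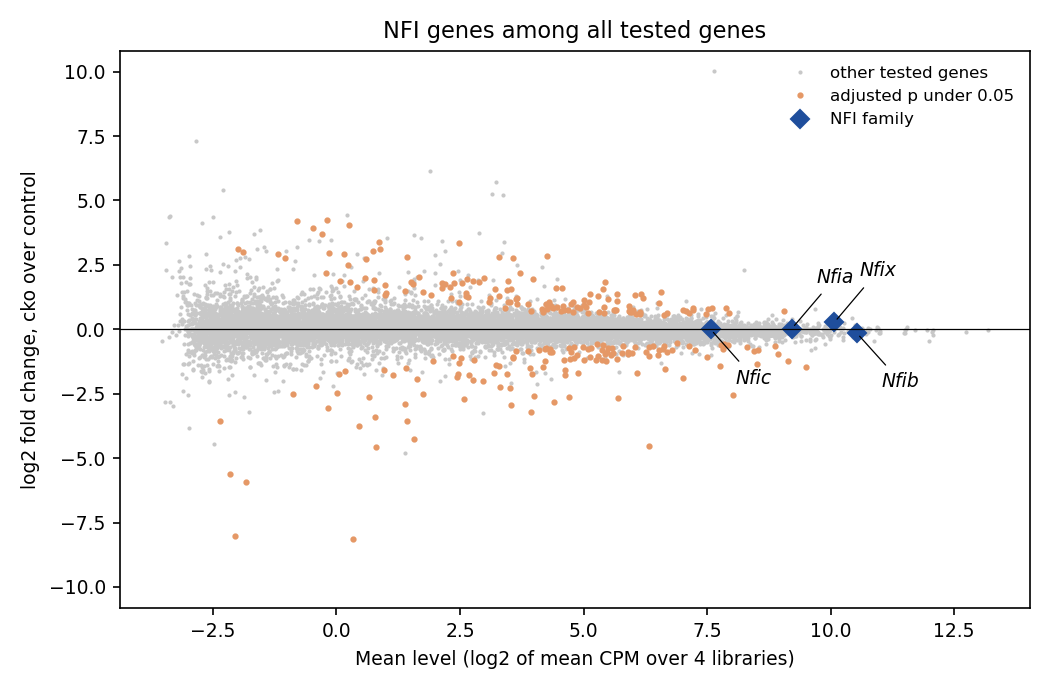
The log2 fold change (cko over control) against the mean level (log2 of mean CPM over 4 libraries) for all 16436 tested genes, with the 260 called genes in orange and the NFI genes as blue diamonds. The NFI genes sit at high expression with log2 fold changes between -0.15 and 0.27, and none is among the called genes.

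The members were expressed at different levels. Per kb of exonic sequence, Nfix was the highest, with 159 and 162 CPM per kb in cko GCps, against 138 and 128 CPM per kb in control GCps. Its mean over the 4 libraries ranked 254th among 16236 tested genes with a gene model. Nfib followed with 88.6 and 98.7 CPM per kb in cko and 100.5 and 107 CPM per kb in control (rank 400). Nfia had 50.9 and 59.2 CPM per kb in cko and 53.9 and 54.1 CPM per kb in control (rank 837). Nfic had 27.7 and 29.6 CPM per kb in cko and 31.0 and 26.5 CPM per kb in control (rank 1866). Per kb of exonic sequence this order, Nfix over Nfib over Nfia over Nfic, was the same in each of the 4 libraries, and no neighbours in it overlapped. The place of Nfix above Nfib depended on the length used. With the longest transcript as length (9116 bp for Nfib, 5476 bp for Nfix), Nfib was above Nfix in control library 2. In CPM without a length, Nfib was above Nfix in each of the 4 libraries. All exons of a gene were counted together, so levels per kb are understated where long exons are used by few transcripts.

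The summed level of the 4 genes was 327 and 349 CPM per kb in cko GCps, against 324 and 315 CPM per kb in control GCps. The sums differed by 0.08 on the log2 scale, by 0.13 without cko library 1 and by 0.03 without cko library 2, and the lower cko sum was close to the higher control sum. On the log2 scale the shares in the sum differed by 0.19 for Nfix, -0.23 for Nfib, -0.06 for Nfia and -0.08 for Nfic. Neither Nfix nor Nfib had passed the test, so the shares are a description only. Nfix supplied 48.8% and 46.3% of the summed level in cko, against 42.8% and 40.4% in control, a difference of 5.94 percentage points. Nfib supplied 27.1% and 28.3% in cko, against 31.0% and 34.0% in control, a difference of -4.82 percentage points. The share of Nfia was 15.6% and 17.0% in cko and 16.6% and 17.2% in control. The share of Nfic was 8.49% and 8.48% in cko and 9.56% and 8.39% in control, so the groups overlapped for both of these.

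The ratio of Nfib to Nfix differed most between genotypes among the 6 pairs of members. It was 0.556 and 0.611 in cko GCps, against 0.726 and 0.841 in control GCps, per kb, a difference of -0.42 on the log2 scale. The other 2 ratios over Nfix were also lower in both cko libraries, by -0.25 for Nfia and -0.27 for Nfic on the log2 scale. The ratio of Nfia to Nfib was higher in cko by 0.17, and those of Nfia and Nfib to Nfic overlapped. The ratios were chosen after the levels had been seen and are given as a description, with no test.

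**Figure D3:**
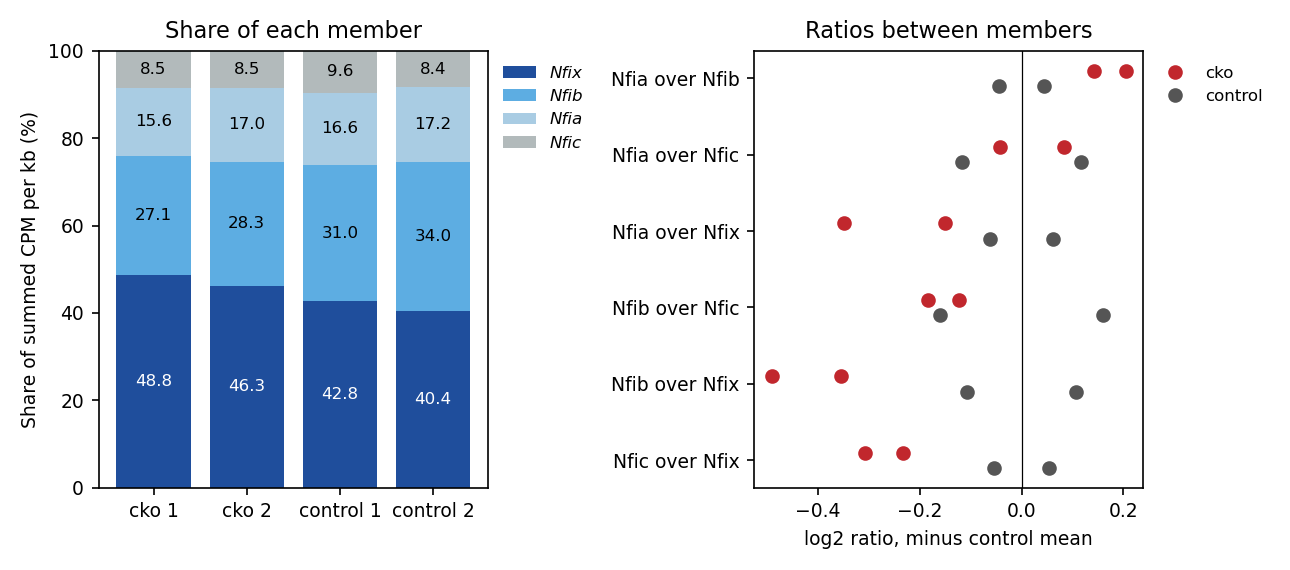
Left, share of each NFI gene in the summed CPM per kb of the family in each library; right, log2 ratio of each pair of members minus its control mean, with cko points (red) above control points (grey) in each row. Nfix makes up 48.8% and 46.3% of the sum in cko and 42.8% and 40.4% in control, and the cko points of every ratio over Nfix lie left of the control points.

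The spread within a genotype differed between members. On the log2 scale the cko libraries were 0.22 apart for Nfia, 0.16 for Nfib, 0.09 for Nfic and 0.02 for Nfix. The control libraries were 0.01 apart for Nfia, 0.09 for Nfib, 0.23 for Nfic and 0.12 for Nfix. Only for Nfix was the difference between genotypes (0.27) larger than the gap within both genotypes; for Nfib the difference of -0.15 was about as large as the gap between the cko libraries.

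The genes whose profile over the 4 libraries was nearest to each member were sought among 98 tested genes of the lists used here, by the root mean square difference of centred log2 CPM. Nfix was nearest to Ncam1 (0.01), a cell adhesion molecule, and Gfap (0.04), an intermediate filament of astrocytes. Nfib was nearest to Cdh2 (0.02), which encodes N-cadherin, and Zic1 (0.04), a transcription factor of GCps. Nfia was nearest to Ezh2 (0.05), the methyltransferase of Polycomb complex PRC2, and Gdf10 (0.06), a gene of Bergmann glia. Nfic was nearest to Efnb1 (0.03), which encodes ephrin-B1, and Cx3cr1 (0.06), a receptor of microglia. Likeness over 4 libraries is a description only.

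Among 10 genes tied to NFI in granule neuron maturation in earlier work, 9 were tested and 0 were called in edgeR's quasi-likelihood test. Their median log2 fold change was 0.09, against -0.00 over all tested genes, with 6 above and 3 below 0. Both cko libraries lay outside the control range for 5 of the 9, against 43.9% of all tested genes. Of the 9, 3 had an unadjusted p under 0.05, against 13.6% of all tested genes. DESeq2 called 2, against 5.53% of the genes it tested, whereas the share for edgeR's test was 1.58%. Gabra6, the GABA-A receptor subunit that marks mature granule neurons, was not tested, with counts of 0 and 1 in cko libraries and 8 and 0 in control libraries.

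The cell adhesion and guidance genes of the list had log2 fold changes between -0.16 and 0.29. Cntn2, the axonal adhesion molecule TAG-1 of newly postmitotic granule neurons, had 1498 and 1630 CPM in cko GCps, against 1833 and 1410 CPM in control GCps (log2 fold change -0.05, edgeR adjusted p = 0.940). Ncam1 had 149 and 153 CPM in cko, against 128 and 118 CPM in control (0.29, edgeR adjusted p = 0.223), so that both cko libraries were above both controls. Cdh2 and Efnb1 had log2 fold changes of -0.16 and 0.01 (edgeR adjusted p = 0.614 and 0.992). None of these passed the test, and Cntn2 and Efnb1 overlapped between genotypes.

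The receptor and signaling genes included the largest difference of the list. Grin2c, the NMDA receptor subunit that mature granule neurons take up, had 23.0 and 15.5 CPM in cko GCps, against 1.10 and 2.59 CPM in control GCps. Both cko libraries were far above both controls, with a log2 fold change of 3.40 (SE 0.48) and an adjusted p of 0.0566 in edgeR's quasi-likelihood test, just outside the threshold. With 1 library left out the adjusted p was 0.000455 (without control library 1), 0.00682 (without control library 2), 0.174 (without cko library 1) and 0.101 (without cko library 2). Wnt7a, a secreted factor of granule neurons that acts on mossy fibre axons, had a log2 fold change of -0.17 (edgeR adjusted p = 0.872) at 1.82 to 2.82 CPM over the 4 libraries.

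The transcription factors of the list did not pass either. Rest, the repressor of neuronal genes, had 8.95 and 7.09 CPM in cko GCps, against 4.66 and 4.72 CPM in control GCps. Its log2 fold change was 0.77 (SE 0.19, edgeR adjusted p = 0.115). The value was 0.60 without cko library 1 and 0.93 without cko library 2. Nfatc4, a calcium-regulated factor, had 20.8 and 15.7 CPM in cko, against 14.7 and 14.5 CPM in control (0.33, edgeR adjusted p = 0.470), a value of 0.12 without cko library 1 and 0.51 without cko library 2. Etv1, an ETS factor of maturing granule neurons, had 12.1 and 21.6 CPM in cko, against 15.7 and 16.0 CPM in control (0.09, edgeR adjusted p = 0.943). The cko libraries were above both controls for Rest and Nfatc4, and on either side of them for Etv1.

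Among 9 genes tied to NFI in neural progenitors and glia, 1 rose, 1 fell and 7 did not pass, with a median log2 fold change of -0.02. Over all tested genes 0.809% rose and 0.773% fell. The cko libraries lay outside the control range for 5 of the 9, against 43.9% of all tested genes. Apcdd1, a Wnt inhibitor found downstream of NFIA in the gliogenic spinal cord, rose, with 131 and 121 CPM in cko GCps, against 81.5 and 78.9 CPM in control GCps (log2 fold change 0.65, SE 0.09, edgeR adjusted p = 0.0348). Insc, the Inscuteable adaptor that orients the spindle of dividing progenitors, fell, with 5.03 and 5.35 CPM in cko, against 15.4 and 11.7 CPM in control (-1.38, SE 0.18, edgeR adjusted p = 0.0265). In neither gene did the genotypes overlap. The call of Insc held without each library in turn (edgeR adjusted p between 0.016 and 0.0416), whereas that of Apcdd1 was lost without cko library 1 (adjusted p = 0.0621), control library 1 (adjusted p = 0.0603) or control library 2 (adjusted p = 0.159).

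The other genes of this list did not pass. Fabp7, the brain lipid-binding protein of radial and Bergmann glia, had 131 and 107 CPM in cko GCps, against 179 and 156 CPM in control GCps (log2 fold change -0.49, edgeR adjusted p = 0.143). Gfap, whose promoter is a known NFI target in astrocytes, had 72.7 and 71.8 CPM in cko, against 66.2 and 60.4 CPM in control (0.19, edgeR adjusted p = 0.489). Both lay outside the control range, on opposite sides. Mmd2, another gene found downstream of NFIA in spinal cord, had 32.0 and 33.1 CPM in cko, against 40.6 and 38.1 CPM in control (-0.27, edgeR adjusted p = 0.311). Sox9 (0.15), Zcchc24 (-0.19), Hes1 (-0.02) and Ezh2 (-0.00) overlapped between genotypes on the CPM scale and had edgeR adjusted p values between 0.674 and 0.997.

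**Figure D4:**
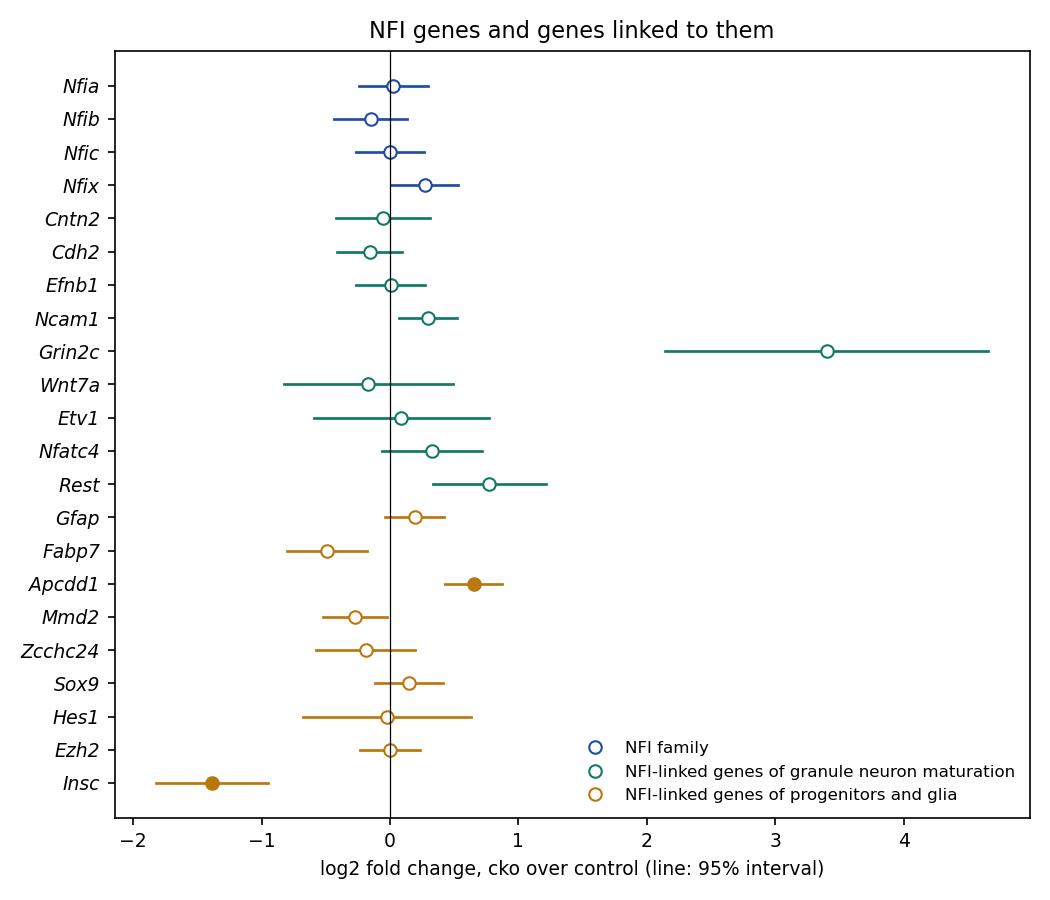
Log2 fold change (cko over control) with its 95% interval for the 4 NFI genes (blue), the 9 tested NFI-linked genes of granule neuron maturation (green) and the 9 NFI-linked genes of progenitors and glia (orange); filled points have an adjusted p under 0.05. Only Apcdd1 (0.65) and Insc (-1.38) are filled, and the interval of Nfix starts at 0.01.

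The genes beside the members were not called. Gm11266, an antisense transcript within Nfib, had 14.5 and 18.9 CPM in cko GCps, against 24.1 and 27.2 CPM in control GCps (log2 fold change -0.62, SE 0.16, edgeR adjusted p = 0.132). Its cko libraries were below both controls, as were those of Nfib, and 43.9% of all tested genes likewise had cko libraries outside the control range. Gm16104, an antisense transcript within Nfic, was at or below 1.51 CPM, with a log2 fold change of -0.96 (edgeR adjusted p = 0.267). Its cko libraries (0.67 and 0.59 CPM) were also below both controls (1.51 and 0.93 CPM), whereas Nfic overlapped between genotypes. The protein-coding genes E130114P18Rik and Lyl1, which overlap Nfia and Nfix, had log2 fold changes of 0.11 and 0.28. Those beside the members were Tm2d1 for Nfia (-0.09), Zdhhc21 for Nfib (0.06), Smim24 and Celf5 for Nfic (0.16 and -0.32), and Trmt1 and Dand5 for Nfix (0.02 and -0.12). Their edgeR adjusted p values were between 0.332 and 0.976.

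Summed levels of cell type markers differed between genotypes beside the NFI genes, although few single markers passed the test. Over all tested genes 0.809% were called higher and 0.773% lower in cko. Granule cell precursor markers summed to 5130 and 5133 CPM in cko GCps, against 4604 and 4736 CPM in control GCps, with 0 of 8 called, 6 of 8 log2 fold changes above 0 and a median of 0.23. Zic1, the most highly expressed, had a log2 fold change of -0.12 (edgeR adjusted p = 0.762), and Ccnd2, chosen after its values were seen, had 1645 and 1537 CPM in cko, against 1132 and 1187 CPM in control (0.46, edgeR adjusted p = 0.123). Differentiating granule neuron markers summed to 3227 and 4182 CPM in cko, against 5287 and 5321 CPM in control, with 7 of 8 below 0 and 1 called, Nhlh1 (log2 fold change -0.60, edgeR adjusted p = 0.0467). Mature granule neuron markers summed to 242 and 328 CPM in cko, against 819 and 750 CPM in control, and 2 of 8 fell, Cadps2 (-2.54, edgeR adjusted p = 0.0134) and Kcnd2 (-2.84, adjusted p = 0.0255). Cadps2 supplied most of the difference in the sum. Of the 8 log2 fold changes, 6 were below 0 and 2 above, Grm4 (0.88, edgeR adjusted p = 0.117) and Calb2 (0.80, edgeR adjusted p = 0.150). For these 2 both cko libraries were above both controls. The precursor sum was thus higher and both neuronal sums lower in cko. Grin2c, which mature granule neurons take up but which is not in these sums, was higher in both cko libraries. It had 23.0 and 15.5 CPM in cko, against 1.10 and 2.59 CPM in control. Most of the difference in the precursor sum came from Ccnd2. Pax6 went the other way, with 460 and 468 CPM in cko, against 589 and 552 CPM in control (log2 fold change -0.30, edgeR adjusted p = 0.239). The part of these lists in the values of Nfix and Nfib was not tested. In bulk samples, fewer cells of a type and less RNA per cell cannot be told apart.

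Markers of other cell types were also detected, and their calls stand beside the same 0.809% called higher and 0.773% called lower over all tested genes. Astrocyte and Bergmann glia markers summed to 924 and 920 CPM in cko GCps, against 1054 and 1135 CPM in control GCps (0 of 9 called). Slc1a3, a glutamate transporter, was the most highly expressed (log2 fold change -0.41, edgeR adjusted p = 0.217). Of the 9 log2 fold changes, 7 were below 0 and 2 above, Gfap (0.19) and Sox9 (0.15). Oligodendrocyte markers summed to 411 and 431 CPM in cko, against 376 and 335 CPM in control, and 1 of 9 rose (Olig2, 1.21, edgeR adjusted p = 0.0415). Endothelial and mural markers summed to 452 and 508 CPM in cko, against 379 and 332 CPM in control, and 1 of 10 fell (Slco1a4, -1.18, edgeR adjusted p = 0.0415), with 9 of 10 log2 fold changes above 0. Skeletal muscle markers summed to 29.8 and 63.3 CPM in cko, against 8.43 and 6.17 CPM in control, and 3 of 7 rose (Ckm, Myh3 and Tnnt3). The muscle markers thus differed most in relative terms, and the glial sum was lower and the vascular and oligodendrocyte sums higher in both cko libraries.

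The remaining lists had 0 called genes, against 1.58% of all tested genes. Microglial markers summed to 222 and 230 CPM in cko GCps, against 231 and 196 CPM in control GCps, led by Csf1r (log2 fold change 0.26, edgeR adjusted p = 0.433). Meningeal markers summed to 54.4 and 42.8 CPM in cko, against 61.7 and 46.6 CPM in control. The most highly expressed, Col3a1 (0.05, edgeR adjusted p = 0.931), was the only 1 of 5 with a log2 fold change above 0. The other 4 were below 0, and the median of the list was -0.17. Both sums overlapped between genotypes. Purkinje cell, interneuron and unipolar brush cell markers summed to 126 and 134 CPM in cko, against 100.4 and 112 CPM in control, led by Eomes (0.33, edgeR adjusted p = 0.200). Pcp2 and Ppp1r17, which define Purkinje cells, were under 1 CPM in every library. Calb1 and Car8 of the same list were tested, at 0.71 to 1.22 CPM and 0.86 to 1.32 CPM over the 4 libraries. Choroid plexus markers, almost wholly Ttr (0.59, edgeR adjusted p = 0.960), summed to 31.0 and 1.40 CPM in cko and 18.4 and 2.92 CPM in control, so they varied more between libraries than between genotypes. The part of these cells in the NFI values was not tested.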

How the data were processed

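RNA-Seq counts of 2 cko and 2 control libraries of purified P7 GCps were used. ATAC-Seq and ChIP-Seq were not analysed here. The authors deposited whole-number read counts per gene with no normalization. Tools named by the submitters or in the methods are Trim Galore 0.4.1 for trimming, TopHat2 2.0.14 for alignment to mm10, HTSeq 0.6.1p1 for counting (intersection-strict, low-quality alignments left out) and DESeq2 1.8.1 for the authors' own tests. Use of strand in the counting: not given in the sources used here.

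Gene models came from GENCODE (GRCm38) for 37607 of 38924 genes, which are not the models of the counting. Total counts were 73480074 and 62437759 in cko libraries and 77346481 and 61836588 in control libraries. Genes were kept with filterByExpr, scaled by TMM and tested with edgeR 4.0.16 in R 4.3.3 (robust quasi-likelihood test, Benjamini-Hochberg adjustment over 16436 genes, threshold 0.05). Log2 profiles used a prior count of 2, and means and SDs are over 2 libraries. Replicate libraries differed beyond sampling noise (chi-square over degrees of freedom of 87.7 for cko and 47.2 for control). The steps were tested on simulated counts with 2 libraries a group: the simulated fold changes and their signs were recovered, but the share of false calls was above the threshold of 0.05, so the adjusted p-values may be too small.

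Named were all members, Chd7, all tested NFI-linked genes, up to 4 called members or the highest expressed member of each other list, the nearest genes in profile, and neighbouring genes. Members and lists were chosen with earlier results of these data known. Alternatives were DESeq2 1.42.0, its size factors, no count filter, a replicate block, no robust estimation, leaving out each library and, for levels per kb, the longest transcript as length.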

Additional observations from a re-analysis of the deposited data

How the results depend on the processing

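No NFI gene was called under any of 9 alternatives (DESeq2, DESeq2 size factors, no count filter, replicate block, no robust estimation and 4 fits without 1 library each). The log2 fold change of Nfix ranged between 0.21 and 0.33 (adjusted p between 0.166 and 0.966) and that of Nfib between -0.23 and -0.06. The sign of Nfia and Nfic was not stable. Without 1 library each, Nfia ranged between -0.088 and 0.14 and Nfic between -0.11 and 0.11, and Nfic was 0.0019 with the replicate block. The summed level ranged between 0.0311 and 0.1275 on the log2 scale with 1 library left out, and was 0.068 with the longest transcript as length and 0.074 with DESeq2 size factors. The Nfix share difference ranged between 4.69 and 7.20 percentage points and that of Nfib between -6.31 and -3.33 with 1 library left out; size factors cannot change a share.

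The 260 called genes became 890 with DESeq2, 727 with no filter, 1010 with the replicate block, 259 with DESeq2 size factors, 179 without robust estimation and between 115 (without control library 2) and 712 (without cko library 2) with 1 library left out. Of the NFI-linked maturation genes 0 were called, but 2 with DESeq2, 1 each with no filter, with the replicate block and without robust estimation, and between 0 and 1 without a library. The 2 that DESeq2 called were Grin2c and Rest, Rest was the 1 under the block and with no filter, and Grin2c the 1 without robust estimation (adjusted p = 0.0343). Of the progenitor and glia genes 2 were called, and between 1 and 2 without a library, while Fabp7 also passed with DESeq2 (adjusted p = 0.0185), no filter (0.0297) and the block (0.00596). Efnb1 reversed to -0.00 with DESeq2 (-0.003287), its size factors (-0.0005427) and no filter (-4.134e-05). Leaving out 1 library also turned the sign within the ranges -0.23 to 0.15 for Cntn2, -0.084 to 0.099 for Efnb1, -0.45 to 0.18 for Wnt7a, -0.39 to 0.46 for Etv1, -0.38 to 0.021 for Zcchc24, -0.39 to 0.28 for Hes1 and -0.066 to 0.067 for Ezh2. Without a sign change, Cdh2 ranged between -0.26 and -0.06, Sox9 between 0.04 and 0.26 and Nfatc4 between 0.12 and 0.51. The cause of these shifts was not tested. Same-numbered libraries deviated together with a correlation of 0.187 over genes, but 2 pairs do not show that the numbers pair the libraries. Genes with few counts, such as Wnt7a (SE 0.28), had wider intervals than the NFI genes (SE 0.11 to 0.12).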
